A study of Mus musculus with 3 samples.

Results

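The Ccdc genes, named for a coiled-coil domain, were measured in RNA from cells labelled as spermatids. The members were all genes for which the array platform's annotation gives a symbol made of Ccdc and a number, on probe sets that name 1 gene only. This rule found 130 genes on 163 probe sets, out of 19938 named genes on 21789 such probe sets. The 3 samples formed a single group of wild-type BALB/c male mice aged 30 days, with no treatment or transgene. They were hybridised to an Affymetrix whole-transcript mouse gene array, which places probes along the exons of each gene. There was no second group, so each gene was set against a background level measured on the same arrays. The labels number the replicates without tying them to animals, so the SDs and p-values may measure technical spread only.

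A coiled coil forms when helices with regularly spaced hydrophobic residues wind around each other. The Ccdc name records that structure and no shared function or ancestry, and it covers proteins of many compartments. A large group of them builds the axoneme, the microtubule core of motile cilia and of the sperm flagellum. There, coiled-coil proteins dock the dynein motors, space them along the doublet microtubules and link neighbouring doublets. Other Ccdc proteins belong to centrosomes, mitochondria, membrane traffic, the spliceosome or the extracellular space. Spermatids are the haploid germ cells that assemble the flagellum, the acrosome and the head-tail junction.

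The label was checked against marker genes. All 6 spermatid markers were above background, with Prm2 at 13.22 ± 0.04 and Acrv1 at 12.07 ± 0.02 (log2 level, SD, n = 3 arrays). So were all 6 spermatocyte markers, among them Sycp3 at 11.29 ± 0.19, and all 5 measured Leydig cell markers, among them Cyp17a1 at 11.36 ± 0.06. Of the spermatogonial markers 1 of 6 was above background, of the Sertoli markers 2 of 5, of the peritubular and endothelial markers 3 of 6 and of the macrophage and blood markers 3 of 5. Of all named genes 36.6% were above background. The extraction protocol describes a cell suspension strained from dissected tubules and no sorting step. A level below therefore belongs to the mixture of cells, and how many cells of a type express a gene cannot be told apart from how much RNA each cell holds. The part of the other cell types in the Ccdc levels was not tested.

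Most Ccdc genes were detected. Tested one-sided with limma, with p-values adjusted by Benjamini-Hochberg over all genes at 0.05, 76 of the 130 Ccdc genes (58.5%) were called above the background level, against 36.6% of all named genes. The background level of 7.98 was the 95th percentile of 211 vomeronasal receptor and hair keratin associated protein genes. Whether some genes of these families are expressed in these cells was not tested. The median level was 8.63 for the Ccdc genes and 7.45 for all named genes. A mean level of 10 or more was reached by 34 Ccdc genes, against 12% of all named genes. With the 99th percentile of the same families as background, 51 Ccdc genes were called, against 19.3% of all named genes, and taking 1027 olfactory receptor genes as the background family instead, at their 95th percentile, 100 were, against 55%. All 3 arrays lay above the level of 7.98 in 77 Ccdc genes, against 37.6% of all named genes. A gene that was not called is not shown to be absent, since the median of the background families was 4.77 and the lowest Ccdc gene, Ccdc125, stood at 5.58.

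**Figure D1:**
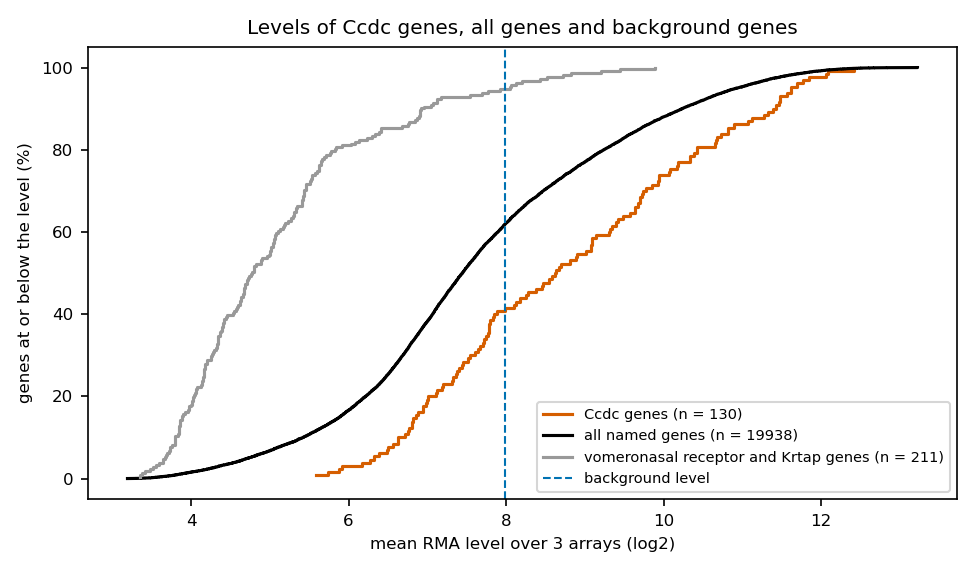
Cumulative share of genes (vertical axis, percent) at or below a mean log2 RMA level (horizontal axis) for the 130 Ccdc genes, all 19938 named genes and the 211 background genes. The dashed line is the background level of 7.98, and the Ccdc curve lies to the right of the curve of all genes over most of the range, with medians of 8.63 and 7.45.

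Probes of different genes bind with different strength, so the account goes by role and by call, and an order of levels between genes is not read as an order of transcript abundance. Known roles placed 64 members in 7 lists, and 66 members were in no list, though some of these also have known roles. Some lists held more symbols than the members found, such as 23 for axoneme and flagellum and 18 for RNA and nuclear genes. The share above background, given beside the 36.6% of all named genes, was 12 of 13 for axoneme and flagellum genes and 10 of 11 for genes of the sperm head, the head-tail junction and other germ cell functions. It was 8 of 11 for centrosome and spindle genes, 3 of 4 for mitochondrial genes and 5 of 9 for genes of membrane traffic and signalling scaffolds. RNA and nuclear genes had 2 of 9 and secreted and cell junction genes 1 of 7. Members entered the axoneme and germ cell lists for known cilium, sperm or testis roles. The lists were also chosen with earlier results of these data known. A high share in germ cell RNA was thus likely from the start, so it describes these lists and tests nothing. An eighth list, of meiotic chromosome genes, had no member under the Ccdc names of this annotation.

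**Figure D2:**
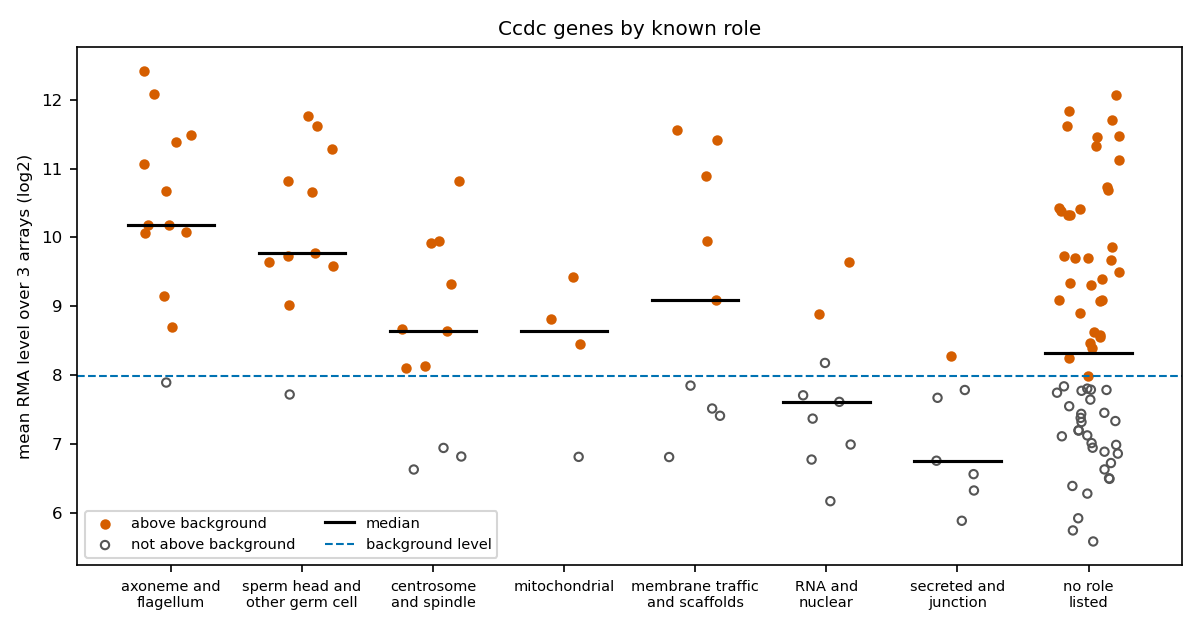
Mean log2 RMA level over 3 arrays (vertical axis) of each Ccdc gene, in columns by known role. Filled points were above background by limma's adjusted test, open points were not, bars are list medians and the dashed line is the background level. The axoneme list has a median of 10.18 and the secreted and cell junction list one of 6.75.

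In the axonemal group all members but Ccdc114 were called. Ccdc181, a microtubule-binding protein of the sperm flagellum, was at 12.40, 12.40 and 12.48 in replicates 1, 2 and 3, more than 4 log2 units over the background level. Ccdc39, which with Ccdc40 forms the ruler that sets the spacing of dynein arms and spokes, was at 12.05, 11.98 and 12.23. Its partner Ccdc40 was at 9.15 on all 3 arrays. All arrays lay above the background level for each of these genes, and the same held for the other 9 called axonemal genes.

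Linkers between doublets and proteins inside or along the doublets were called as well. Ccdc65, a subunit of the nexin-dynein regulatory complex, was at 11.07 on all 3 arrays. Ccdc173, a protein of the doublet microtubule's inner face, was at 11.48 on all 3 arrays, and the tektin-like gene Ccdc105 was at 10.17 on each. Ccdc96 and Ccdc113, whose proteins form a complex on the axoneme in Tetrahymena, were both called. Ccdc96 was at 11.39 on all arrays and Ccdc113 at 10.62, 10.54 and 10.84. Ccdc189, a gene of the sperm flagellum, was at 10.08 on all arrays. Ccdc146, which mouse sperm need to form a flagellum, was at 10.16, 10.11 and 10.28.

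The 3 related genes of the outer dynein arm docking family fell on both sides of the background level. Ccdc63, which mouse spermatids need for the flagellum, was at 10.08, 10.05 and 10.08, and all 3 values lay above the background level. Ccdc151, a docking subunit of motile cilia, was at 8.69 on all arrays and also called. Ccdc114, its partner in motile cilia, was at 7.93, 7.80 and 7.94, under the background level on each array (adjusted p = 1, limma). The background level decides that call, since Ccdc114 was 0.09 under it and was called when receptor pseudogenes were left out of the background families, which put the level at 7.64. The wider machinery was measured too, in a list of docking, dynein assembly and nexin link partners that carry no Ccdc name. All 15 genes of that list were above background, beside 36.6% of all named genes. They were listed for these known roles, so a high share was likely from the start and tests nothing. Among them Dnaaf1, a dynein assembly factor, was at 11.86 ± 0.02 and Gas8, the nexin link subunit that neighbours Ccdc65, was at 9.52 with tied values (SD, n = 3).

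**Figure D3:**
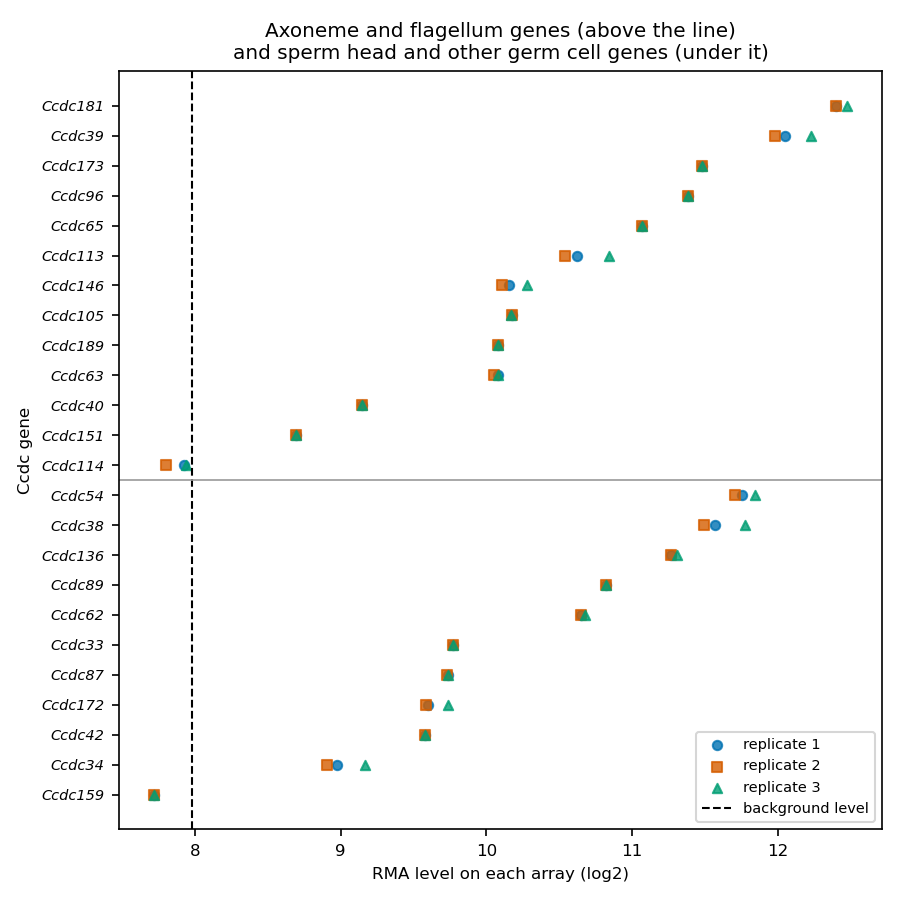
Log2 RMA level on each array (horizontal axis) of the 13 axoneme and flagellum genes and, below the grey line, the 11 genes of the sperm head, head-tail junction and other germ cell functions. Symbols are the 3 replicates and the dashed line is the background level of 7.98, which 12 and 10 of the genes lie above. Where symbols coincide, the 3 deposited values are equal or nearly so.

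Promoters of axonemal members are shown because RFX factors, which bind the X-box, and CREM, which binds the cyclic AMP response element, are known regulators of ciliary and spermatid genes. Windows of 300 bases, from 250 before to 50 after the start, came from RefSeq on GRCm38.p6 and were found for 105 of the 130 members. The X-box half-site GTTGCC and the response element TGACGTCA were searched on both strands. The half-site was in 4 of 12 windows of axonemal members (33.3%), in 19.8% of windows of called members, in 22% of windows of members not called, in 14.6% of windows of all named genes above background and in 12.3% of windows of all named genes. The full response element was in 3 of 81 windows of called members (3.7%), against 3.5% of windows of all named genes above background and 2.4% of windows of all named genes, and the 3 genes were Ccdc173, Ccdc130 and Ccdc86. Its half-site TGACG, which every full element holds, was in 28.4% of windows of called members, against 32.3% of windows of all named genes above background and 25% of windows of all named genes. The motif AACNGTT, bound by MYB factors, was in 6.2% of windows of called members, 4.1% of windows of all named genes above background and 3.8% of windows of all named genes. Windows of 1 gene can overlap, and a match is a description of letters, not a binding site. The 4 axonemal windows with an X-box half-site and the 1 with a full response element follow, 5′ to 3′ on the gene's strand, with matches to GTTGCC or TGACG, on either strand, in capitals.
Ccdc181, chr1:164275348-164275647, plus strand: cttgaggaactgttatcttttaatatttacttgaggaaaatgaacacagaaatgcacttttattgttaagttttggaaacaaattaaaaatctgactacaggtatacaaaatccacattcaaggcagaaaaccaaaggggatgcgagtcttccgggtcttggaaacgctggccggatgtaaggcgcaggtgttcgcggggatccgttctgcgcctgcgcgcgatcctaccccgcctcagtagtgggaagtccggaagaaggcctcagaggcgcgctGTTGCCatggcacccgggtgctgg
Ccdc96, chr5:36484338-36484637, plus strand: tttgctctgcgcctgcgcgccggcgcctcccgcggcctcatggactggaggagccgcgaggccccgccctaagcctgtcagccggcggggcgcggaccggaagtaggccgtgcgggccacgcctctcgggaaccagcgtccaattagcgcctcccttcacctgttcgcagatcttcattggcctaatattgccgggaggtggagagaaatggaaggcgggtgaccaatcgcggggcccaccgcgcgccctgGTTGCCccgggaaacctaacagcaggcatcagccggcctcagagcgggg
Ccdc113, chr8:95533850-95534149, plus strand: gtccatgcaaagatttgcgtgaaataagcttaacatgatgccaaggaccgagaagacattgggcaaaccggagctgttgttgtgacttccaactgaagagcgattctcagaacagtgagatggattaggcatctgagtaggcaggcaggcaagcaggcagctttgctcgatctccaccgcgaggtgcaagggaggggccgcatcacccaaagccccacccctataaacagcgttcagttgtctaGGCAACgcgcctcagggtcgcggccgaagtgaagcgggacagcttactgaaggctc
Ccdc105, chr10:78753018-78753317, minus strand: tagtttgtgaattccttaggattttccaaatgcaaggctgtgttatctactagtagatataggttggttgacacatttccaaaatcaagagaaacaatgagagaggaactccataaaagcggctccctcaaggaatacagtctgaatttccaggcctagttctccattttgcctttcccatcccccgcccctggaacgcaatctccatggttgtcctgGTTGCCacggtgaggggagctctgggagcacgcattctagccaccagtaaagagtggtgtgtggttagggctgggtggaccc
Ccdc173, chr2:69789437-69789736, minus strand: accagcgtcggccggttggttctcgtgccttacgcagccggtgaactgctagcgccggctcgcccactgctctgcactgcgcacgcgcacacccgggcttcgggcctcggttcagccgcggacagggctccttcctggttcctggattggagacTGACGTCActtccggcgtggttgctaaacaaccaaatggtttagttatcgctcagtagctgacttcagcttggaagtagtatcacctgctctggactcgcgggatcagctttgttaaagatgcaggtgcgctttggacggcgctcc
In Ccdc181 and Ccdc96 the half-site fell after the annotated start, and in Ccdc113 it was read from the opposite strand, just before the start. The window of Ccdc39, with levels as given above, and that of Ccdc65 held neither the X-box half-site nor the TGACG half-site.

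Germ cell genes outside the axoneme list were nearly all called. Ccdc54, a gene of testis, was at 11.75, 11.71 and 11.84 in replicates 1, 2 and 3. Ccdc38 and Ccdc42, whose products bind each other and act in the manchette and the flagellum of mouse spermatids, were at 11.57, 11.49 and 11.78 for Ccdc38 and at 9.58 on all arrays for Ccdc42. Ccdc136, an acrosome gene, was at 11.27, 11.27 and 11.31. In each of these genes the 3 arrays were well above the background level, by at least 1.5 log2 units.

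The acrosome and fertility genes Ccdc62 and Ccdc87 averaged 10.66 ± 0.02 and 9.74 ± 0.0021 (SD, n = 3). Ccdc172, which binds a tektin of the sperm tail, was at 9.60, 9.59 and 9.74, and Ccdc34, a gene of sperm tail formation, at 8.98, 8.90 and 9.16. Ccdc34 lost its call when replicate 1 or replicate 2 was left out, and it was under the 99th percentile background. Ccdc33 was at 9.77 and Ccdc89 at 10.82, with tied values. Ccdc159 at 7.72, also tied, was the member of this list not called.

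Centrosome genes were called in 8 of 11 members, beside 36.6% of all named genes. With the 99th percentile background 3 of the 11 were called, beside 19.3% of all named genes. Ccdc92, a centriole protein, was at 10.82, 10.82 and 10.80. The centriolar satellite genes Ccdc18 and Ccdc66 averaged 9.94 ± 0.06 and 9.92 with tied values, and Ccdc77, whose call was lost without replicate 2, 9.32 ± 0.11 (SD, n = 3). Ccdc15 averaged 8.67 ± 0.04, and Ccdc14, Ccdc28b and Ccdc13 were at 8.64, 8.13 and 8.10. Ccdc28b, a modifier of Bardet-Biedl syndrome in humans, and the satellite gene Ccdc13 lay within 0.15 log2 units of the background level. Ccdc78 at 6.94, a deuterosome gene of multiciliated cells, Ccdc61 at 6.81, a centriole gene, and Ccdc57 at 6.63, a satellite gene, had tied values and were not called.

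Among mitochondrial members Ccdc90b, a paralogue of the calcium uniporter regulator, averaged 9.42 ± 0.05, Ccdc58 of the intermembrane space 8.81 ± 0.03 and Ccdc127 8.45 with tied values (SD, n = 3). Ccdc51, a subunit of a potassium channel of the inner membrane, was at 6.75, 6.93 and 6.75 and not called. Of 3 measured partners of the calcium uniporter 1 was above background, beside 36.6% of all named genes. It was Smdt1, at 10.31 ± 0.01.

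Scaffold and membrane traffic genes split between high and low members. Ccdc88a, girdin, an actin-binding scaffold of Akt signalling, was at 11.58, 11.53 and 11.58, and its relative Ccdc88c, which binds Dishevelled, at 9.09 on all arrays. The remaining relative, Ccdc88b, known from immune cells, was at 6.78, 6.87 and 6.78 and not called. Ccdc50, a ubiquitin-binding protein of growth factor receptor signalling, averaged 11.42 ± 0.01, and Ccdc91, a partner of the GGA sorting adaptors, 10.89 with tied values (SD, n = 3). Ccdc47, of the endoplasmic reticulum, was at 9.92, 9.74 and 10.18, and its call was lost without replicate 1.

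The Ccdc genes of the COMMD complex, which recycles endosomal cargo, were under the background level. Ccdc93 was at 7.84 on all arrays, and the X-linked Ccdc22 was at 7.33, 7.57 and 7.33. Ccdc115, an assembly factor of the vacuolar proton pump, was at 7.55, 7.43 and 7.55. Of 15 other genes of the COMMD and WASH complexes 6 were called, beside 36.6% of all named genes. Among the called were Commd3 at 9.51 ± 0.07 and Washc4 at 9.18 ± 0.03 (SD, n = 3).

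RNA and nuclear members were called in 2 of 9 cases, beside 36.6% of all named genes. Ccdc130, related to a splicing factor, was at 9.64 with tied values, and the nucleolar gene Ccdc86 was at 8.89, 8.89 and 8.89. Ccdc6, a gene fused to RET in human thyroid cancer, was at 8.21, 8.01 and 8.31, above the level on every array, but its spread kept it from the call (adjusted p = 0.174, limma, n = 3). The spliceosome genes Ccdc12 and Ccdc84 were at 6.77 ± 0.06 and 7.37 with tied values, and the ribosome-binding gene Ccdc124 at 6.99 ± 0.04. Ccdc59, Ccdc9 and Ccdc137 were at 7.70 ± 0.07, 7.61 with tied values and 6.17 ± 0.05.

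Secreted and cell junction members were called in 1 of 7 cases, beside 36.6% of all named genes. The called gene was Ccdc134, an endoplasmic reticulum and secreted protein, at 8.28 on all arrays. Ccdc80 and Ccdc3, secreted proteins known from adipose tissue, were at 6.75 and 6.32 with tied values, and Ccdc126 at 6.56 with tied values. The 3 related genes of the Ccdc85 group were not called. Ccdc85b was at 7.80, 7.86 and 7.68, Ccdc85c at 7.62, 7.77 and 7.62, and Ccdc85a at 5.84, 5.97 and 5.84. All 9 of these values lay under the background level. In the same RNA 3 of 6 peritubular and endothelial markers were called, Dcn at 11.16 ± 0.02, Acta2 at 9.37 ± 0.08 and Myh11 at 8.72 ± 0.10 (SD, n = 3). Pecam1 at 6.74, Kdr at 6.63 and Cdh5 at 7.45 were not.

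Of the 66 members outside the role lists 35 (53%) were called, beside 36.6% of all named genes. A mean level of 10 or more was found in 15 of them, and in 19 of the 64 members with a listed role. The 12 with the highest means ran from Ccdc60 at 12.07 ± 0.03 to Ccdc183 at 10.42 with tied values (SD, n = 3). Ccdc81 averaged 11.84 ± 0.03, Ccdc83 11.70 ± 0.13, Ccdc169 11.62 with tied values and Ccdc175 11.47 ± 0.14. Ccdc7a averaged 11.46 ± 0.19, Ccdc110 11.33 with tied values, Ccdc150 11.13 ± 0.05 and Ccdc178 10.73 ± 0.16. Ccdc158 averaged 10.68 ± 0.07 and Ccdc116 10.43 ± 0.03. All arrays of these 12 genes lay more than 2 log2 units above the background level. The 6 with the lowest means, none of them called, were Ccdc141 at 6.49, Ccdc69 at 6.39, Ccdc177 at 6.28, Ccdc8 at 5.92, Ccdc162 at 5.74 and Ccdc125 at 5.58. Ccdc8 belongs to a growth-related complex with Obsl1 and the ubiquitin ligase scaffold Cul7.

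Near the background level the calls were narrow. The members just above it were Ccdc28b at 8.13, Ccdc13 at 8.10 and Ccdc182 at 7.98, the last called at 0.0019 above the level with its 3 values tied. Those just below it were Ccdc114 at 7.89, Ccdc93 at 7.84 and Ccdc167 at 7.83. Exactly equal values on all 3 arrays were found in 51 members (39.2%) and in 46% of all named genes, and 25 of the 76 called members were of this kind. For a tied gene the SD is 0, and the test then says only on which side of the background level it lies. Values equal on only some of the arrays, as in Ccdc181, can also lower the SD and with it the p-value.

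The probe sets of a gene did not always give 1 level. Ccdc180 was covered by 27 probe sets, whose means ran from 7.0 to 11.47 with a median of 9.08, and 24 of them lay above the background level. The lowest of these probe sets had the widest spread over the arrays, at 6.97, 6.22 and 7.82 in replicates 1, 2 and 3, while the highest was at 11.47, 11.47 and 11.48. The other 4 members with several probe sets were Ccdc12, Ccdc141, Ccdc149 and Ccdc162, and all their probe sets lay under the background level. The remaining 125 members rested on a single probe set.

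**Figure D4:**
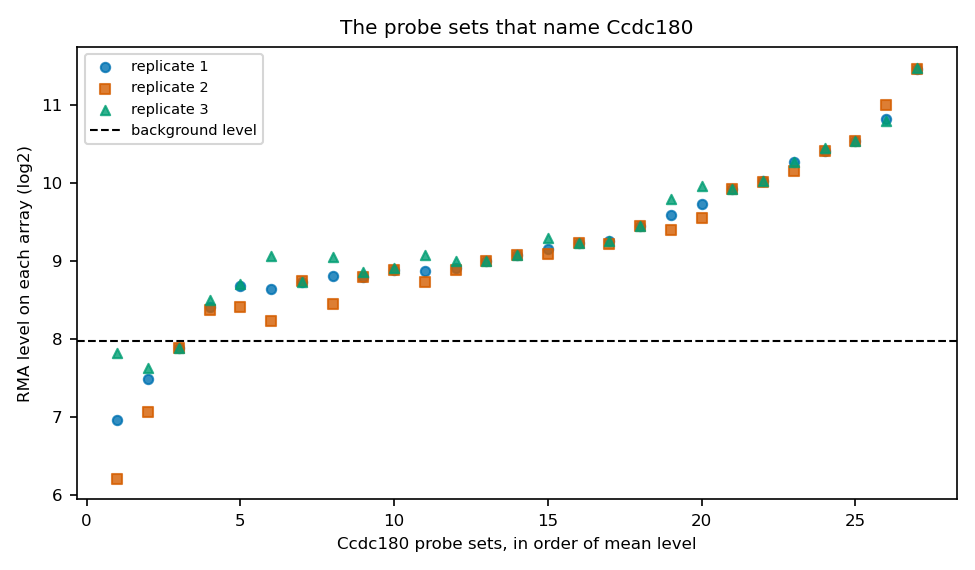
Log2 RMA level on each array (vertical axis) of the 27 probe sets that name Ccdc180, ordered by mean level (horizontal axis). Symbols are the 3 replicates and the dashed line is the background level, and means run from 7.0 to 11.47 within this gene.

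The arrays differed little, and the direction of the difference went with the level. Pearson's r between arrays over 35556 probe sets ran from 0.992 to 0.995, across probe sets that are not independent replicates. Among the 79 members whose values were not all tied, the median SD was 0.055. Some of these members still had equal values on a pair of arrays, so this SD may understate the spread. Over all probe sets, exact ties between a pair of arrays ran from 38.8% to 51.4%. Of the 51 such members above background, 47 were higher in replicate 3 than in replicate 2 (92.2%), with a median difference of 0.08, against 79.4% of all untied genes above background. Of the 28 such members not above background 11 were higher in replicate 3 and 17 in replicate 2, with a median difference of -0.05, against 20.9% of all untied genes of that kind higher in replicate 3. The median of replicate 3 minus replicate 2 was 0.21 for the spermatocyte markers, 0.11 for the Leydig, 0.08 for the macrophage and blood, 0.06 for the spermatid and 0.01 for the peritubular and endothelial markers. It was 0 for the spermatogonial and the Sertoli markers, and the part of the cell mixture in the Ccdc differences was not tested.

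**Figure D5:**
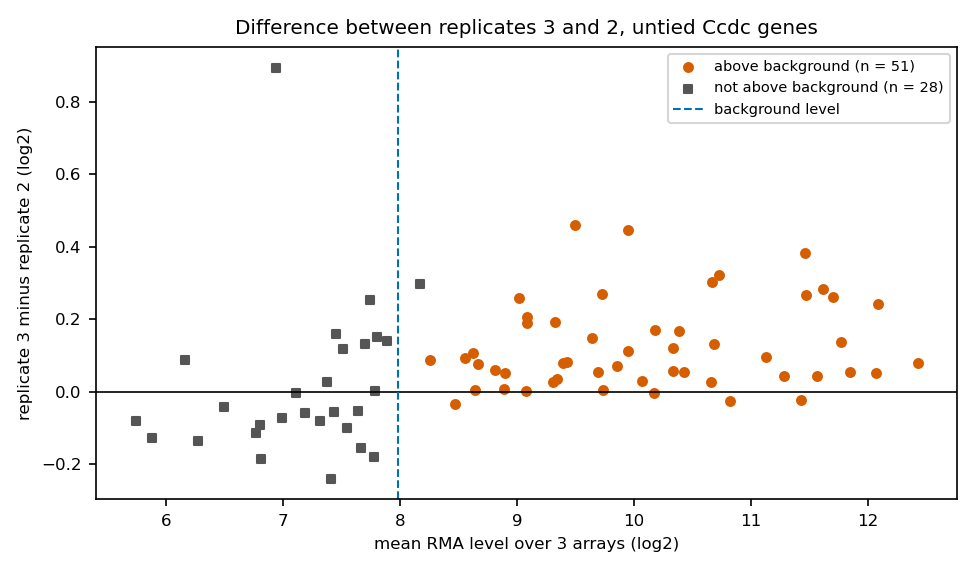
Replicate 3 minus replicate 2 (vertical axis, log2) against mean log2 RMA level (horizontal axis) for the 79 Ccdc genes whose values were not all tied. Of the 51 members above background (round points) 47 lie above 0, and of the 28 others (square points) 11 do.

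In each of the 5 members with the widest range over the arrays, replicate 3 was highest and replicate 2 lowest. Ccdc152 was at 6.90, 6.51 and 7.41, a range of 0.90, and was not called. Its direction was thus opposite to that of most untied members not above background. Ccdc25 was at 9.46, 9.27 and 9.73 and Ccdc47 had the values given above. Ccdc7a was at 11.43, 11.29 and 11.67, and Ccdc178 at 10.72, 10.57 and 10.89. The call of Ccdc25 was lost without any 1 of the replicates, although its level was 1.52, 1.66 and 1.39 above the background level without replicate 1, 2 and 3. In these fits limma's prior added only 0.25, 0.06 and 0.06 degrees of freedom, so the tests were weak. A call lost with a replicate left out therefore need not rest on that replicate.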

How the data were processed

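Total RNA of 3 samples was labelled with biotin and hybridised to Affymetrix whole-transcript mouse gene arrays, 1 sample per array. The deposited values are log2 levels per probe set, made by the authors with Robust Multichip Average (RMA) in Affymetrix Power Tools and an annotation based on mm9, per the labels' design text; its version is not stated there. There were 35556 probe sets, with column medians from 7.17 to 7.20. The platform annotation named 1 gene for 21789 probe sets, several for 1621 and none for 12146. Where several probe sets name a gene alone, their median was used. limma 3.58.1 in R 4.3.3 fitted each gene's mean with moderated variances, tested it one-sided against the background level and adjusted by Benjamini-Hochberg at 0.05. The prior had 0.27 degrees of freedom, so each gene's variance was hardly moderated. The script was tested on simulated data with SDs drawn from genes whose values were not all tied, so the simulation did not cover tied genes. No depth exists for arrays, and 3 arrays limit the precision. Promoter windows and current symbols came from RefSeq on GRCm38.p6, which matched all 130 members; the protein features planned were not computed, as protein sequences were not used here. Members named were those of the role lists and, outside them, the 12 highest and 6 lowest, the 3 nearest either side of the background level, the 5 widest in range and those with several probe sets that differ. The members and lists were chosen with earlier results of these data known, and the promoter motifs after the levels were seen. Alternatives covered the background, the probe set rule, the call, the prior and each replicate.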

Additional observations from a re-analysis of the deposited data

Results flagged for a closer look

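Probe sets that name a Ccdc gene together with another gene were left out of the counts, since their signal cannot be given to either gene. The background level was exceeded on all 3 arrays by 3 of the 4, without a test, beside 37.6% of all named genes. The share among the other probe sets that name several genes was not computed. The probe set of Zfp821 and Ccdc7b had a mean of 11.36, with 11.34, 11.09 and 11.67 in replicates 1, 2 and 3. The probe set of Ccdc103, a dynein arm assembly gene, and Fam187a was at 8.42 on all arrays, and that of Ccdc24 and B4galt2 at 8.26 on all arrays. The fourth, of Ccdc142 and Mrpl53, was at 7.34 and under the background level. With 3 samples in the group, no sample was tested as an outlier.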

How the results depend on the processing

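No paired analysis was possible because the samples form 1 group. The count of 76 called Ccdc genes stayed between 51 (99th percentile background) and 100 (olfactory receptor background) at the gene level, and was 72 to 73 with a replicate left out, 77 with all 3 arrays above the level and 84 without receptor pseudogenes in the background, an alternative chosen after seeing the data. Of all named genes 33.4% to 35.6% were called with a replicate left out, and 43.6% without the pseudogenes. Counted by probe set it was 98 of 163, of which 23 name Ccdc180, against 39.3% of all probe sets that name 1 gene. The count over all named genes moved more, to 3847 with the 99th percentile and 10958 with olfactory receptors. With the 99th percentile, 19.3% of all named genes were called. Counts were 3 of 11 for centrosome, 1 of 4 for mitochondrial and 1 of 9 for RNA and nuclear members. Outside the lists 23 of 66 were called. Secreted members had 0 of 7 by limma, with 0 at an unadjusted p under 0.05 and 0 with all 3 arrays above that level. With olfactory receptors, 55% of all named genes were called. RNA and nuclear members then counted 6 of 9 (66.7%), above that share, and secreted members 3 of 7 (42.9%), under it. The axoneme count lay between 10 and 13 under all alternatives run, while the share of all named genes ran from 19.3% to 55%. Relative to the 99th percentile level, 23 members turned from above to below: Ccdc40 at -0.016, Ccdc88c at -0.073, Ccdc148 at -0.078, Ccdc174 at -0.079, Ccdc180 at -0.083, Ccdc34 at -0.15, Ccdc144b at -0.26, Ccdc86 at -0.27, Ccdc58 at -0.35, Ccdc151 at -0.47, Ccdc15 at -0.50 and Ccdc14 at -0.52. They also included Ccdc27 at -0.54, Ccdc187 at -0.58, Ccdc97 at -0.61, Ccdc185 at -0.69, Ccdc127 at -0.71, Ccdc163 at -0.78, Ccdc134 at -0.88, Ccdc160 at -0.91, Ccdc28b at -1.04, Ccdc13 at -1.06 and Ccdc182 at -1.18. Ccdc25 and Ccdc77 also lost their calls there, with means still above that level. All 130 single calls were the same with the highest probe set per gene and with an intensity trend in the prior. Signal close to the background level limits the calls of the weakest members.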

Other observations

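By chromosome, as assigned by RefSeq, 8 of 9 Ccdc genes on chromosome 5 were called, beside 42% of all named genes there, and 7 of 8 on chromosome 16, beside 39.2%. Chromosome 9 had 4 of 10, beside 38.6%, and chromosome 1 had 3 of 7, beside 38.7%. Chromosome 3 had 3 of 3, beside 40.7%. Only some chromosomes are named here, each holds few Ccdc genes, and of all Ccdc genes 58.5% were called. The counts are therefore not read as differences between chromosomes. On chromosome 17, where 31.7% of all named genes were called, limma called 0 of 3, with 0 at an unadjusted p under 0.05 and 0 with all 3 arrays above the level. Of the 3 X-linked members, beside 27.6% of all named genes of that chromosome, Ccdc160 was called, at 8.28, 8.20 and 8.28 in replicates 1, 2 and 3, and its call was lost without replicate 1 or replicate 3. Ccdc120 at 7.55 ± 0.06 (SD, n = 3) and Ccdc22 were not called. Both Ccdc28 paralogues were called, Ccdc28a at 9.67 and Ccdc28b at 8.13, each with tied values. Of 5 partners of the meiotic proteins once named Ccdc 2 were called, beside 36.6% of all named genes: the telomere attachment gene Terb2 at 8.19 and the nuclear envelope gene Sun1 at 8.57, both tied, and Rec114 at 6.98, Mei4 at 6.82 and Majin at 7.41 were not.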
